A study of Mus musculus with 6 samples.

Results

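The autophagy machinery of the mouse cortex was followed through 36 genes whose products start, build, load and close the autophagosome. The genes were taken by name from a list of this machinery, by a rule that uses no measured value, and all 36 were found among the 38355 genes of the count tables. Whole cortical hemispheres of wild-type C57BL/6 mice, an inbred laboratory strain, were compared between 6 months old animals (3 samples) and 16 months old animals (3 samples), and each sample came from a different brain. For both ages the labels name no transgene and no agent other than the chloral hydrate anesthesia before dissection, and polyadenylated RNA was sequenced as paired reads. The housing protocol in the labels states 3 months for the younger mice, whereas titles, sources and the age entries state 6 months, which is used here. A hemisphere mixes neurons, glia and vessels, so that fewer cells of a type and less RNA per cell cannot be told apart, and a change in a rare cell type is diluted.

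Autophagy delivers cytoplasm, damaged organelles and protein aggregates to the lysosome. The ULK kinase complex starts the process, the class III PI3-kinase complex marks the growing membrane with a lipid, ATG9 vesicles and ATG2 bring in lipids, and 2 ubiquitin-like conjugation systems attach proteins of the ATG8 family to the membrane, where cargo receptors dock. Neurons cannot dilute damaged material by dividing, and loss of Atg5 or Atg7 in the nervous system of mice is known to cause neurodegeneration. Much of the control of autophagy acts on proteins, by phosphorylation and lipidation, which RNA sequencing does not measure.

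None of the 36 autophagy genes differed between the ages at a Benjamini-Hochberg adjusted P under 0.05 (edgeR's quasi-likelihood test), where 1.67% of all 17120 genes tested did (286 genes). At an unadjusted P under 0.05 the count was likewise 0 of 36, beside 17.4% of all genes. DESeq2's Wald test called 0 of 36 as well, beside 2.67% of the 17623 genes it tested, and gave 1 of 36 at an unadjusted P under 0.05, beside 2227 of those genes. The smallest adjusted P among the autophagy genes was 0.293, for Rb1cc1. Of the 36 log2 fold changes, given throughout as 16 over 6 months, 22 were positive and 14 negative, and their median was 0.020, beside 0.0014 over all genes. The values ranged from −0.20 (Rb1cc1) to 0.12 (Atg4d), and 30 of 36 were smaller than 0.1 in size, as were 8570 of the 17120 genes. The median standard error was 0.060 for the 36 genes and 0.084 for all genes, so that these sizes were not measured with equal precision. The 95% intervals of the 36 genes together reached from −0.40 to 0.31 on the log2 scale and each included 0. In 6 of 36 genes (16.7%) the samples of the ages did not overlap, beside 23.7% of all genes. Pik3r4, Wipi1 and Wipi2 were higher in all 3 samples at 16 months, and Atg3, Gabarap and Optn were lower in all 3.

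**Figure D1:**
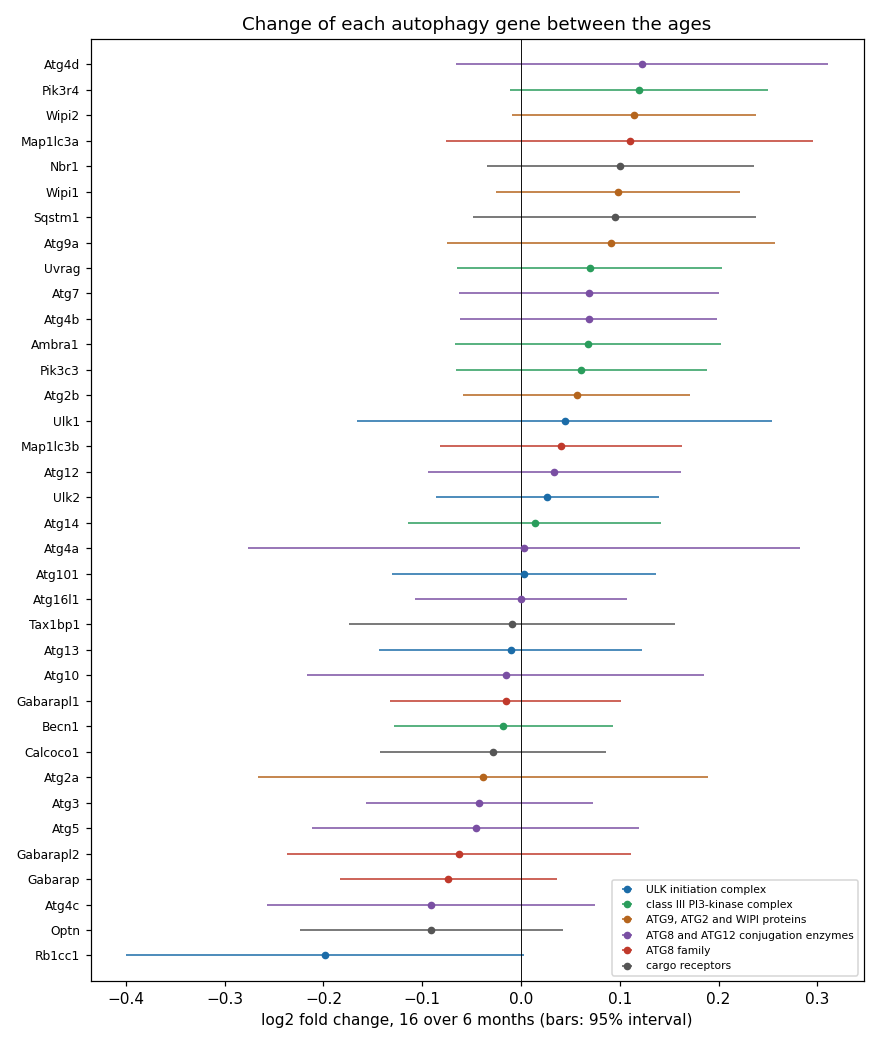
Log2 fold change (16 over 6 months) of the 36 autophagy genes, sorted by value and coloured by role; points are the estimates of edgeR's quasi-likelihood test and bars their 95% intervals. All 36 intervals include 0, and the estimates run from −0.20 for Rb1cc1 to 0.12 for Atg4d.

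Total counts on genes lay between 29797253 and 46519280 per sample, and all 36 genes passed the filter on low counts. The lowest count of any autophagy gene in any sample was 110, for Atg4a, so that no level was near the floor of 3 counts, which is 0.0645 to 0.101 counts per 1000000 (CPM) in these samples. The tissue carried the markers of cortex: the summed level of 7 markers of excitatory neurons was 1425 to 1516 CPM at 6 months and 1442 to 1727 CPM at 16 months, and the lowest mean of a single marker was 33.3 CPM. Genes listed as markers of neighbouring regions were detected too, and whether tissue of those regions was present was not tested. The summed level of 6 thalamic markers was 196 to 204 CPM at 6 months and 206 to 232 CPM at 16 months, with 4 of 6 called higher, and that of 6 dentate gyrus markers was 67.6 to 70.8 CPM and 89.0 to 92.4 CPM, with 3 of 6 called higher. For 6 choroid plexus markers the sums were 17.0 to 18.3 CPM and 25.3 to 28.2 CPM, with 1 of 6 called higher. Among cell types of the cortex, the sums of astrocyte markers (2348 to 2384 CPM at 6 months, 2502 to 2538 CPM at 16 months) and of markers of GABAergic interneurons (812 to 833 and 865 to 917 CPM) were higher in all older samples. The list of interneuron markers (Gad1, Gad2, Slc32a1, Sst, Vip and Lhx6) did not hold Pvalb. The paper reports diminished Pvalb transcript levels in the older cortex. The higher sum therefore does not stand for every interneuron marker. The calls in the lists for cell types of the cortex were 1 astrocyte and 1 microglia marker, both lower at 16 months. The sum of the microglia markers was 346 to 356.9 CPM at 6 months and 357.1 to 366 CPM at 16 months, narrowly higher in all older samples. For oligodendrocytes the sums were 6810 to 6880 and 6870 to 6895 CPM. For endothelium they were 144.3 to 147 and 138 to 143.8 CPM, narrowly lower in all older samples. The marker lists were chosen with earlier results of these data known, so that their calls are no independent evidence. The part of these marker differences in the autophagy genes' values was not tested.

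Both ages hold libraries that stand apart by base composition, and they bear on every value below. At 16 months, replicates 1 and 2 deviated from the mean of their age in opposite ways, one upward and the other downward with rising GC content of a gene. Over the 36 autophagy genes, whose longest transcripts hold 39.1% to 63.1% G and C, the correlation of the deviation with GC content was r = 0.835 in replicate 1, −0.869 in replicate 2 and 0.052 in replicate 3. At 6 months the values were 0.637, −0.614 and 0.060. Over all genes the values were 0.588, −0.582 and −0.055 at 16 months and 0.160, −0.130 and −0.023 at 6 months. These are descriptions across genes of the same libraries, and genes are not independent replicates. The share of uniquely aligned reads outside annotated genes was 22.0% in replicate 1 of 16 months and 24.9% to 27.7% in the other 5 samples.

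The ULK initiation complex, which receives the signal to start autophagy at the membrane, holds genes of very different base composition. Ulk1, the kinase, and Rb1cc1, the large scaffold also known as FIP200, are partners in 1 complex, and the longest transcripts hold 58.0% and 39.1% G and C. The first 90 coding bases of both are shown with Map1lc3a, the autophagy gene richest in G and C (63.1%), and Tax1bp1, a cargo receptor with 39.6%, from the GENCODE annotation of GRCm38, with every G and C in capitals.
Ulk1 (chromosome 5, 110784488 to 110810097, minus strand): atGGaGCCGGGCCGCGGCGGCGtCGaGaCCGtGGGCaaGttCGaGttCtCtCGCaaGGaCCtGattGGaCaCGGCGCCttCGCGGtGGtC
Rb1cc1 (chromosome 1, 6206197 to 6276648, plus strand): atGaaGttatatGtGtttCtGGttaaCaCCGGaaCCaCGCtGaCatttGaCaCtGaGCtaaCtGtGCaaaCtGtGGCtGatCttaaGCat
Map1lc3a (chromosome 2, 155276297 to 155278073, plus strand): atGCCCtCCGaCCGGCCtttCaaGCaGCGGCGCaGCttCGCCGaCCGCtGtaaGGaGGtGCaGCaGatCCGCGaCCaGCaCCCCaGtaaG
Tax1bp1 (chromosome 6, 52713729 to 52766780, plus strand): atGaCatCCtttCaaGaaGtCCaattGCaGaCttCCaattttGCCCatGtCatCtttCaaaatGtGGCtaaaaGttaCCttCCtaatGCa
In these stretches G and C make up 67.8% in Ulk1, 42.2% in Rb1cc1, 65.6% in Map1lc3a and 37.8% in Tax1bp1.

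Rb1cc1 was measured at 186, 202 and 196 CPM in replicates 1, 2 and 3 of 6 months and at 145, 193 and 169.8 CPM in replicates 1, 2 and 3 of 16 months. Replicates 1 and 3 of 16 months lay below all samples of 6 months, and replicate 2 lay among them. Its log2 fold change was −0.20 ± 0.090 (SE), with a 95% interval from −0.40 to 0.0032 and an adjusted P = 0.293 (edgeR, Benjamini-Hochberg). Without replicate 2 of 16 months the value was −0.30 (adjusted P = 0.0154, same test and adjustment), and without replicate 1 of 16 months it was −0.100 (adjusted P = 0.341, same test and adjustment). Ulk1 showed the opposite order, with 84.5, 74.5 and 80.9 CPM at 6 months and 94.2, 71.1 and 82.3 CPM at 16 months. Its samples at 16 months surrounded those at 6 months, and its log2 fold change of 0.044 ± 0.094 (SE) turned to −0.063 without replicate 1 of 16 months and to −0.013 with the correction for GC content and gene length. Ulk2, the second ULK kinase, had the highest level of the complex per exon length, 24.2 ± 0.288 CPM per kb (SD, n = 3) at 6 months. Per length of the longest transcript, Atg13 (26.4 CPM per kb) and Rb1cc1 (25.6) stood above Ulk2 (25.2). The samples for Ulk2 were at 145, 143 and 146 CPM at 6 months and at 142, 153 and 147 CPM at 16 months, with a log2 fold change of 0.027 ± 0.051 (SE) and an adjusted P = 0.826 (edgeR, Benjamini-Hochberg). The adaptors Atg13 and Atg101 had log2 fold changes of −0.010 ± 0.060 and 0.0032 ± 0.060 (SE). Of the 5 genes of the complex, 3 values were positive and 2 negative, and none was called.

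**Figure D2:**
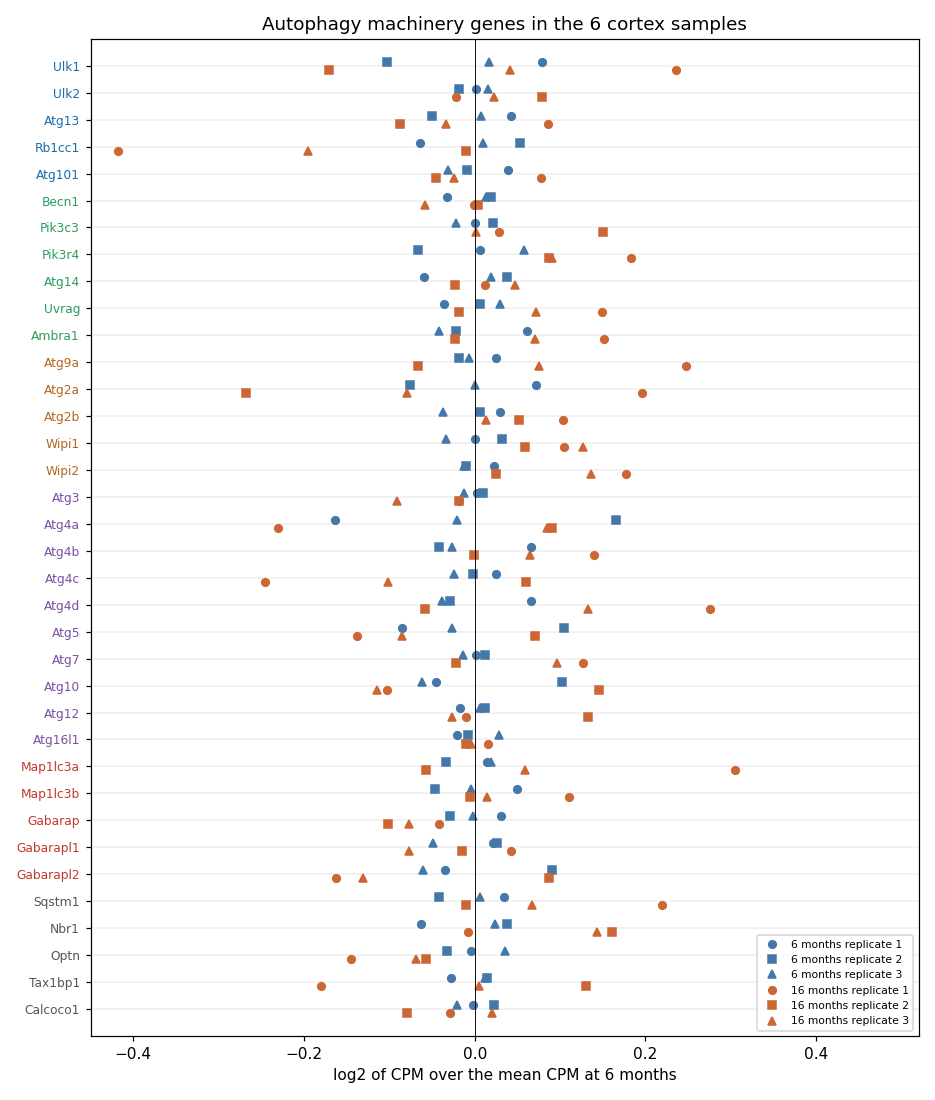
Level of each autophagy gene in each sample, as log2 of its CPM over the gene's mean CPM at 6 months; blue is 6 months, orange 16 months, marker shapes give the replicate, and gene names are coloured by role. For Rb1cc1, Atg2a and Map1lc3a the orange circle (replicate 1 of 16 months) and the orange square (replicate 2) lie at opposite ends of the orange points.

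The class III PI3-kinase complex makes the lipid PI3P on the forming membrane. Of its 6 genes, 5 had positive log2 fold changes, with a median of 0.064, and none was called. Becn1, which encodes the scaffold Beclin 1, had the highest level per exon length of the complex, 13.02 ± 0.254 CPM per kb (SD, n = 3) at 6 months. It was measured at 89.9, 93.2 and 92.9 CPM at 6 months and 92.0, 92.2 and 88.3 CPM at 16 months. These samples overlapped and lay close together, and the log2 fold change was −0.018 ± 0.050 (SE) with an adjusted P = 0.885 (edgeR, Benjamini-Hochberg). Exons of Cntd1 on the opposite strand cover 43.9% of the exons of Becn1, and the strand setting of the counting is not given in the sources used here. Pik3r4, which encodes the pseudokinase VPS15, was at 37.2, 35.4 and 38.6 CPM at 6 months and at 42.1, 39.4 and 39.5 CPM at 16 months. All 3 samples at 16 months lay above all 3 at 6 months, but the ages overlapped with the correction for GC content and gene length. The log2 fold change was 0.12 ± 0.059 (SE), with a 95% interval from −0.011 to 0.25 and an adjusted P = 0.329 (edgeR, Benjamini-Hochberg). The lipid kinase Pik3c3 (0.061 ± 0.057, SE), the autophagy-specific subunit Atg14 (0.014 ± 0.057), Uvrag, a subunit of the endosomal form of the complex (0.069 ± 0.060), and the regulator Ambra1 (0.068 ± 0.060) had log2 fold changes that were likewise not called.

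ATG9, ATG2 and the WIPI proteins supply membrane: ATG9 is a scramblase in small vesicles, ATG2 transfers lipids, and WIPI proteins read PI3P. Here 4 of 5 log2 fold changes were positive, with a median of 0.091, and none was called. Atg9a had the highest level per exon length of the group, 21.1 ± 0.326 CPM per kb (SD, n = 3) at 6 months and 22.4 ± 2.45 CPM per kb at 16 months. Its samples were at 123, 119.8 and 121 CPM at 6 months and at 144, 116 and 128 CPM at 16 months, so that the older samples held both the highest and the lowest value of all 6. The log2 fold change was 0.091 ± 0.075 (SE) with an adjusted P = 0.575 (edgeR, Benjamini-Hochberg). Wipi2, which recruits the ATG16L1 complex, was at 125, 123 and 122 CPM at 6 months and at 139.6, 126 and 136 CPM at 16 months. The older samples all lay above the younger ones, replicate 2 by the least. Its log2 fold change was 0.11 ± 0.055 (SE), with a 95% interval from −0.0091 to 0.24 and an adjusted P = 0.322 (edgeR, Benjamini-Hochberg). Without replicate 2 of 16 months it was 0.16 with an adjusted P = 0.0479 (same test and adjustment). Without replicate 1 of 16 months it was 0.081 (adjusted P = 0.377, same test and adjustment). With the correction for GC content and gene length it was 0.067 (adjusted P = 0.144, same test and adjustment). Wipi1 was at 26.4, 27.0 and 25.8 CPM at 6 months and at 28.4, 27.5 and 28.8 CPM at 16 months, again without overlap. With the correction for GC content and gene length its samples overlapped. Its log2 fold change was 0.098 ± 0.055 (SE) with an adjusted P = 0.400 (edgeR, Benjamini-Hochberg). Atg2a, whose longest transcript holds 60.0% G and C, was at 49.1, 44.3 and 46.7 CPM at 6 months and at 53.5, 38.8 and 44.2 CPM at 16 months. The older samples lay on both sides of the younger ones, and the log2 fold change of −0.038 ± 0.10 (SE; adjusted P = 0.881, edgeR, Benjamini-Hochberg) turned to 0.062 without replicate 2 of 16 months. Its paralog Atg2b had a log2 fold change of 0.057 ± 0.052 (SE).

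The conjugation systems attach ATG12 to ATG5 and ATG8 proteins to lipid. Of the 10 genes, 6 log2 fold changes were positive and 4 negative, their median was 0.0017, and none was called. Atg4c, one of 4 proteases that trim ATG8 proteins, had the highest level per exon length of the group, 16.0 ± 0.274 CPM per kb (SD, n = 3) at 6 months. Per length of the longest transcript it was at 16.9 CPM per kb, below Atg3 (22.6), Atg16l1 (22.3) and Atg12 (19.1). It was measured at 54.6, 53.6 and 52.8 CPM at 6 months and at 45.3, 55.9 and 50.0 CPM at 16 months. Replicates 1 and 3 of 16 months lay below and replicate 2 above all younger samples, and the log2 fold change was −0.091 ± 0.074 (SE) with an adjusted P = 0.575 (edgeR, Benjamini-Hochberg). Atg4d showed the opposite order, with 21.8, 20.4 and 20.3 CPM at 6 months and 25.3, 20.03 and 22.9 CPM at 16 months. Its log2 fold change of 0.12 ± 0.084 (SE) was the largest positive one of the 36 genes (adjusted P = 0.498, edgeR, Benjamini-Hochberg), and exons of Kri1 on the opposite strand cover 19.3% of its exons. Atg4a had the lowest level of all 36 genes, 1.46 ± 0.168 CPM per kb (SD, n = 3) at 6 months. Its value is uncertain, because 96.1% of its longest transcript is nearly identical to Atg4a-ps or Syt6 and such reads may be left uncounted or split. Atg3, the enzyme that transfers ATG8 proteins to lipid, was at 47.0, 47.3 and 46.6 CPM at 6 months and at 46.4, 46.4 and 44.1 CPM at 16 months. The older samples all lay below the younger ones, by small steps, and the log2 fold change was −0.042 ± 0.052 (SE) with an adjusted P = 0.723 (edgeR, Benjamini-Hochberg). After correction for GC content and gene length the value was 0.035 and the samples overlapped. Atg16l1, which places the conjugation machinery on the membrane, had the smallest change of all 36 genes, with a log2 fold change of 0.00012 ± 0.048 (SE) and a 95% interval from −0.11 to 0.11. The E1-like enzyme Atg7 had a value of 0.069 ± 0.059, Atg5 of −0.046 ± 0.074, Atg12 of 0.034 ± 0.057, Atg10 of −0.016 ± 0.090 and Atg4b of 0.068 ± 0.058 (log2 fold change ± SE).

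The 5 genes of the ATG8 family encode the small ubiquitin-like proteins that coat the autophagosome, of which LC3 is the usual marker of the structure. Their levels differed far more from each other than between the ages. At 6 months Gabarapl1 was at 290.8 ± 8.31 CPM per kb of exons, Map1lc3a at 103 ± 2.08, Gabarap at 65.5 ± 1.37, Map1lc3b at 17.3 ± 0.573 and Gabarapl2 at 12.7 ± 0.722 CPM per kb (SD, n = 3 each). At 16 months the values were 288 ± 11.9, 112 ± 14.6, 62.3 ± 1.30, 17.8 ± 0.774 and 12.2 ± 1.17 CPM per kb in the same order. Neighbours in this order did not overlap in any sample of either age, and the order was the same when the length of the longest transcript was used in place of all exons. Of the transcript of Gabarapl2, 20.9% is nearly identical to 2 pseudogenes, and of Map1lc3b 11.0% to other genes, so that their levels are lower limits where such reads were left uncounted. Exons of 1700101I11Rik on the opposite strand cover 28.3% of the exons of Gabarapl1.

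**Figure D3:**
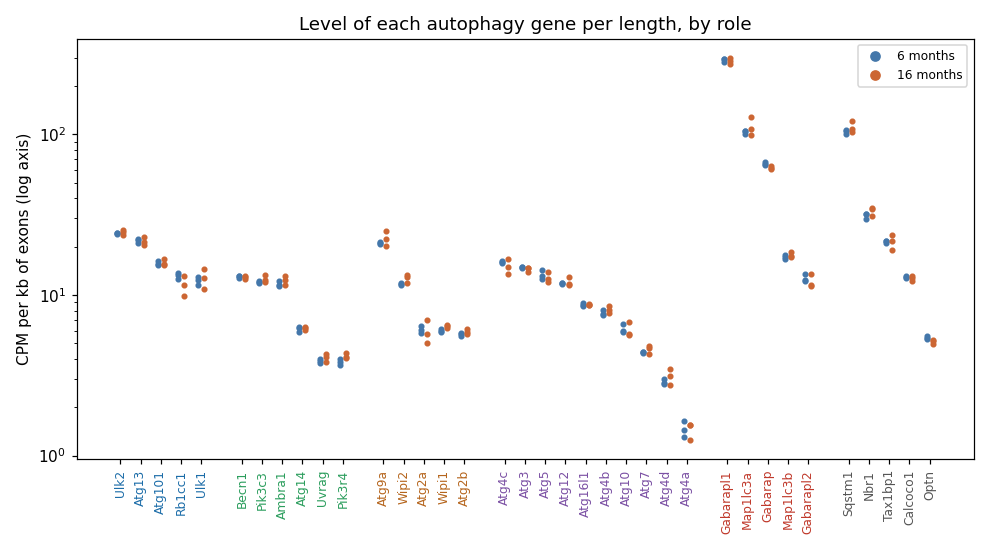
Level of each of the 36 autophagy genes in CPM per kb of exons on a log axis, ordered by level within each role; each point is 1 sample, blue for 6 and orange for 16 months. Gabarapl1 (290.8 CPM per kb at 6 months) stands highest and Atg4a (1.46) lowest, and the points of the ages lie close together for each gene.

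Gabarapl1 was measured at 594, 596 and 566 CPM at 6 months and at 603, 579 and 555 CPM at 16 months. The samples overlapped, with a log2 fold change of −0.016 ± 0.052 (SE) and an adjusted P = 0.908 (edgeR, Benjamini-Hochberg). Gabarap was at 123, 118 and 121 CPM at 6 months and at 117, 113 and 115 CPM at 16 months. All older samples lay below all younger ones, and the log2 fold change was −0.074 ± 0.049 (SE) with a 95% interval from −0.18 to 0.036 and an adjusted P = 0.485 (edgeR, Benjamini-Hochberg). Map1lc3a was at 123, 119 and 124 CPM at 6 months and at 151, 117 and 127 CPM at 16 months. Replicate 1 of 16 months stood well above the other 5 samples and replicate 2 was the lowest of all 6. The log2 fold change was 0.11 ± 0.083 (SE) with an adjusted P = 0.541 (edgeR, Benjamini-Hochberg), and it was 0.0017 when replicate 1 of 16 months was left out and 0.19 when replicate 2 of that age was left out. Map1lc3b, the source of LC3B, was at 134, 126 and 129 CPM at 6 months and at 140.1, 129 and 131 CPM at 16 months, with a log2 fold change of 0.041 ± 0.055 (SE; adjusted P = 0.749, edgeR, Benjamini-Hochberg). Gabarapl2 was at 28.8, 31.5 and 28.3 CPM at 6 months and at 26.4, 31.4 and 27.0 CPM at 16 months, with a log2 fold change of −0.063 ± 0.078 (SE; adjusted P = 0.726, same test and adjustment). Both genes overlapped between the ages, and in both the order of replicates 1 and 2 was the same at each age.

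Cargo receptors bind ubiquitin or other tags on the cargo and ATG8 proteins on the membrane. Of the 5 genes, 2 log2 fold changes were positive and 3 negative, and none was called. Sqstm1, which encodes p62, a receptor that is itself consumed by autophagy as a protein, had the highest level per exon length of the receptors, 104 ± 2.76 CPM per kb (SD, n = 3) at 6 months. This was within the spread of Map1lc3a, its neighbour in the order of all 36 genes. Its samples were at 357, 339 and 350.5 CPM at 6 months and at 406, 346 and 365 CPM at 16 months. Replicates 1 and 3 of 16 months lay above all younger samples and replicate 2 among them. The log2 fold change was 0.095 ± 0.064 (SE), with an interval from −0.048 to 0.24 and an adjusted P = 0.491 (edgeR, Benjamini-Hochberg), and exons of Mrnip on the opposite strand cover 17.3% of its exons. Nbr1, a receptor related to p62, was at 206, 221 and 218 CPM at 6 months and at 214, 240.1 and 237 CPM at 16 months. Replicate 1 was the lowest at both ages, and the log2 fold change was 0.10 ± 0.060 (SE; adjusted P = 0.432, edgeR, Benjamini-Hochberg). Optn, which encodes optineurin, a receptor for damaged mitochondria, was at 20.4, 20.001 and 21.0 CPM at 6 months and at 18.5, 19.7 and 19.5 CPM at 16 months. Its older samples all lay below the younger ones, with a log2 fold change of −0.091 ± 0.060 (SE; adjusted P = 0.478, edgeR, Benjamini-Hochberg). Tax1bp1, poor in G and C, was at 212, 218 and 218 CPM at 6 months and at 191, 236 and 217 CPM at 16 months. Replicates 1 and 2 of 16 months were the lowest and the highest of all 6 samples, around a log2 fold change of −0.0093 ± 0.074 (SE). The value turned to 0.069 without replicate 1 of 16 months and to 0.038 with the correction for GC content and gene length. Calcoco1, another receptor, had a log2 fold change of −0.029 ± 0.051 (SE).

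The spread between samples of one age was larger at 16 months for most autophagy genes. The median SD of log2 CPM was 0.035 at 6 months and 0.081 at 16 months, with a median ratio of 1.85, and 32 of 36 genes had the larger SD at 16 months. Over all genes the ratio was 1.87, with the larger SD at 16 months in 75.5%. The spread followed base composition within the list. At 16 months, all 6 genes with more than 55% G and C (Ulk1, Atg101, Atg9a, Atg2a, Map1lc3a and Calcoco1) were higher in replicate 1 than in replicate 2, by 0.051 to 0.46 on the log2 scale. Of the 8 genes with less than 45% (Rb1cc1, Atg3, Atg4a, Atg4c, Atg5, Atg10, Atg12 and Tax1bp1), 1 was higher in replicate 1, Atg3 by 0.00045, and the others were lower by up to 0.41. At 6 months the same genes differed by −0.025 to 0.18 and by −0.32 to 0.027. These limits of GC content were chosen after the values were seen, and the differences are given without a test.

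**Figure D4:**
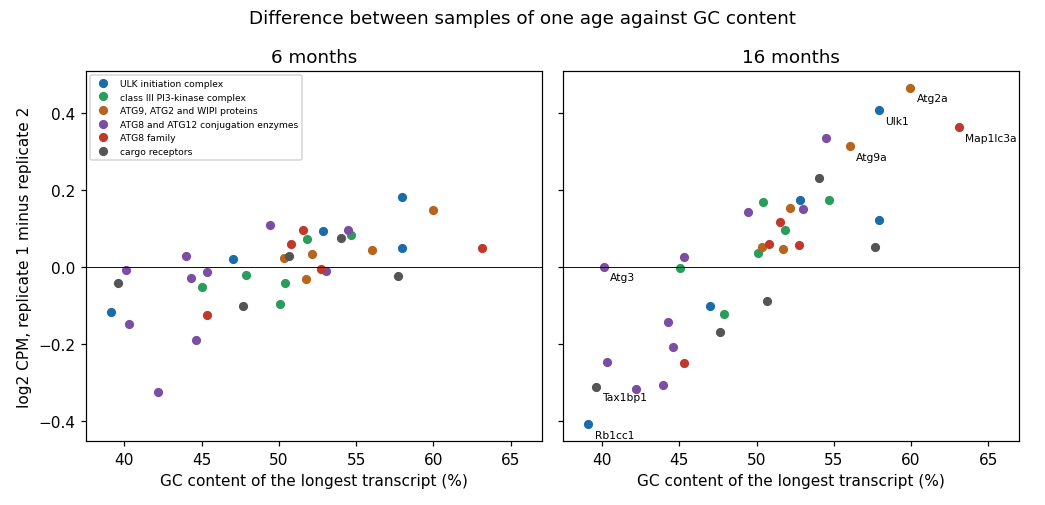
Difference in log2 CPM between replicate 1 and replicate 2 of one age for the 36 autophagy genes, against the GC content of the longest transcript (%), at 6 months (left) and 16 months (right); colours give the role. At 16 months the differences run from −0.41 for Rb1cc1 at 39.1% to 0.46 for Atg2a at 60.0%, while most values at 6 months lie nearer to 0.

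Offsets that remove the dependence on GC content and gene length in each sample brought the samples of 16 months closer together, with a median ratio of SDs of 1.39 for the autophagy genes and 1.27 for all genes. With these offsets 2 of 36 autophagy genes were called, beside 14.2% of all genes (2425 genes). Rb1cc1 was lower at 16 months, with a log2 fold change of −0.12 ± 0.029 (SE) and an adjusted P = 0.0163 (edgeR, Benjamini-Hochberg), and its samples no longer overlapped. Map1lc3a was higher, with a log2 fold change of 0.12 ± 0.030 (SE) and an adjusted P = 0.0137 (same test and adjustment), likewise without overlap. The samples of the ages also lay apart with the offsets in Atg9a, Atg2a, Wipi2, Gabarap, Sqstm1, Optn and Tax1bp1, which were not called. The share of all genes without overlap was not counted with the offsets. Leaving out replicate 2 of 16 months also gave 2 of 36 calls, for Rb1cc1 and Wipi2, beside 12.7% of all genes, and leaving out replicate 1 of 16 months gave 0 of 36, beside 5.73% of all genes. Rb1cc1 had a negative log2 fold change in each of the 6 fits that left out 1 sample, between −0.30 and −0.100. Atg2a moved from −0.038 to −0.11 ± 0.039 (SE; adjusted P = 0.0699, edgeR, Benjamini-Hochberg) with the offsets. These fits reuse the same libraries, and the counts of 0 to 2 among 36 genes are small. Whether the share called differs from that of all genes was not tested.

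**Figure D5:**
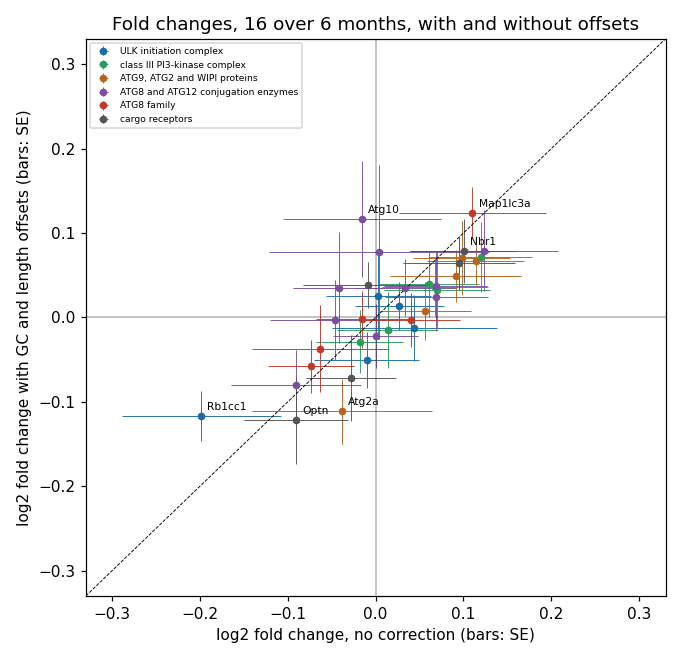
Log2 fold change (16 over 6 months) of the 36 autophagy genes with GC and length offsets (vertical axis) against the value without them (horizontal axis); bars are standard errors, the dashed line marks equal values and colours give the role. Rb1cc1 moved from −0.20 to −0.12 and Map1lc3a from 0.11 to 0.12 with much shorter vertical bars, while Atg10 moved from −0.016 to 0.12.

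Other genes that control or complete autophagy were counted in the same fit. Of 72 such genes, all passed the filter and 0 were called in the quasi-likelihood fit, 11 had an unadjusted P under 0.05, where 17.4% of all genes did, and 36 log2 fold changes were positive, with a median of 0.00051. DESeq2's Wald test called 0 of them and gave 8 at an unadjusted P under 0.05, beside 2227 of 17623 genes. By list, the counts at an unadjusted P under 0.05 were 2 of 12 other core autophagy genes, 3 of 23 genes of mTORC1 (the kinase complex that restrains autophagy), TSC and AMPK, 1 of 6 transcription factors, 1 of 14 genes of fusion with the lysosome and 4 of 17 genes of selective autophagy. Foxo1, a transcription factor that acts on autophagy and stress genes, had the smallest P. It was at 30.9, 27.9 and 28.1 CPM at 6 months and at 32.97, 34.7 and 35.5 CPM at 16 months, without overlap, with a log2 fold change of 0.24 ± 0.063 (SE) and an adjusted P = 0.0913 (edgeR, Benjamini-Hochberg). It was called without replicate 1 or without replicate 2 of 16 months and with the offsets (adjusted P = 0.0155, 0.0354 and 0.00545, same test and adjustment). It was not called without replicate 3 of 16 months (0.339) or without any 1 sample of 6 months (0.163 to 0.368, same test and adjustment). DESeq2's Wald test did not call it either (adjusted P = 0.0748). Tfeb and its relatives among the transcription factors were not called.

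Lamtor5, part of the Ragulator complex that holds mTORC1 at the lysosome, was at 21.7, 22.1 and 21.8 CPM at 6 months and at 20.4, 18.1 and 18.4 CPM at 16 months. Its samples did not overlap, with a log2 fold change of −0.21 ± 0.065 (SE; adjusted P = 0.153, edgeR, Benjamini-Hochberg), and it was called without replicate 1 of 16 months (−0.26, adjusted P = 0.0201, same test and adjustment). It was not called in the other fits that left out 1 sample (adjusted P = 0.102 to 0.434, same test and adjustment). With the offsets it was −0.12 (adjusted P = 0.171, same test and adjustment). Atg16l2, a paralog of Atg16l1, was at 19.4, 21.2 and 19.9 CPM at 6 months and at 18.5, 16.7 and 17.2 CPM at 16 months, again without overlap, with a log2 fold change of −0.20 ± 0.068 (SE; adjusted P = 0.169, edgeR, Benjamini-Hochberg). With the offsets it was −0.24 (adjusted P = 0.0115, same test and adjustment), and without replicate 1 of 16 months −0.25 (adjusted P = 0.0404, same test and adjustment). Tollip, an adaptor for ubiquitinated aggregates, was at 152, 148 and 148 CPM at 6 months and at 165, 168 and 159 CPM at 16 months, with a log2 fold change of 0.13 ± 0.050 (SE; adjusted P = 0.210, edgeR, Benjamini-Hochberg). Fundc1, a mitophagy receptor of the outer mitochondrial membrane, was at 67.5, 76.6 and 76.1 CPM at 6 months and at 49.6, 71.2 and 59.2 CPM at 16 months. Its samples overlapped through replicate 2 of 16 months, and the log2 fold change was −0.29 ± 0.11 (SE; adjusted P = 0.223, edgeR, Benjamini-Hochberg). Without that replicate it was −0.43 (adjusted P = 0.00793, same test and adjustment), and with the offsets −0.16 (adjusted P = 0.0144, same test and adjustment). No other fit that left out 1 sample called Fundc1 (adjusted P = 0.187 to 0.535, same test and adjustment). With the offsets 9 of the 72 genes were called, beside 14.2% of all genes, 3 higher (Foxo1, Bcl2 and Rraga) and 6 lower (Atg16l2, Deptor, Vps41, Bnip3l, Fundc1 and Fkbp8).

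Promoters were searched for the E-box CACGTG, the core of the element through which TFEB and related factors are known to act on lysosomal and autophagy genes. The letters are their own reverse complement, so that 1 search covers both strands. RefSeq promoters of GRCm38, from 250 bases before to 50 after a start, were given for 30 of the 36 genes (34 promoters). The match was found in 4 of 34 (11.8%), beside 7.15% of 32851 promoters of all genes. Atg3 held 2 matches and Atg5, Atg7 and Atg14 held 1 each. The element extended by GT before and AC after, which contains the E-box, was found in 0 of 34, beside 0.326% of all promoters. The stretches around the matches are shown with the E-box in capitals. They come from Atg3, Atg5 and Atg7 of the conjugation systems and Atg14 of the PI3-kinase complex.
Atg3 (chr16:45158723-45158775, plus strand): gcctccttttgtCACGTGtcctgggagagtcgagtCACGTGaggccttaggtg
Atg5 (chr10:44268313-44268342, plus strand): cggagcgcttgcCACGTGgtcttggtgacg
Atg7 (chr6:114670952-114670981, plus strand): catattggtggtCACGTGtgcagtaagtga
Atg14 (chr14:47568418-47568447, minus strand): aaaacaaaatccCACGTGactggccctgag
The matches begin 94 and 71 bases before the start in Atg3, 14 before in Atg5, 132 before in Atg7 and 1 before in Atg14. The RefSeq starts used for Atg7 and Atg14 lie inside the genes as GENCODE annotates them. There Atg7 begins at position 114643097 and Atg14, on the minus strand, at 47570649. The 4 genes with a match had log2 fold changes between −0.046 and 0.069 and none was called. A match is a description of the letters and not of a bound site.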

How the data were processed

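Gene expression was compared between whole cortical hemispheres of 6 months old (n = 3) and 16 months old (n = 3) C57BL/6 mice. The authors trimmed paired reads with fastq-mcf, aligned them to mm10 with STAR in its 2-pass mode and counted reads on Ensembl genes with HTSeq, and the deposited values are these raw counts, without normalization. The submitters' processing notes list CASAVA 1.8.2, STAR 2.3.0e and featureCounts 1.5.0-p1, whereas the files end with a summary as HTSeq writes it. The Ensembl release and the strand setting are not given in the sources used here. These summary lines name no gene and were left out of library sizes and tests; reads outside genes came to 22.0% to 27.7% and ambiguous reads to 1.42% to 1.57% of unique reads.

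By identifier, 36602 of 38355 genes were found in GENCODE vM21 (GRCm38), which gave symbols, positions, exon lengths and GC content, and 1753 were not. Ages were compared in edgeR 4.0.16 (R 4.3.3) with TMM factors (0.988 to 1.01), the filterByExpr filter (17120 genes), the quasi-likelihood test and Benjamini-Hochberg adjustment over all genes tested at 0.05, with age as the only term. The study used DESeq2. The common biological coefficient of variation was 6.40%. The counts are of reads without molecular identifiers, and the test estimates the spread between samples beyond counting error. Levels are TMM-scaled CPM, divided by exon length where genes are compared; log2 values used a prior count of 2. Standard errors are the log2 fold change over the root of the test's F value, and 95% intervals use its degrees of freedom. Near-identical copies were searched with blastn 2.17.0 (97% identity over 100 bases). The test was run on simulated counts with a common dispersion and no dependence on GC content. That check does not cover the GC-dependent deviations of these libraries. The figures were drawn with matplotlib 3.10.9.

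The genes, the lists of other pathway genes and markers, and the tests were chosen with earlier results of these data known. Named with full values are genes called in any of the fits with all samples, in each role the gene of highest level per length, of smallest P and of largest change, the ATG8 family by level, and the 5 pathway genes of smallest P; Ulk1, Wipi1, Atg3, Optn and Tax1bp1 were added after their values were seen. Alternatives were DESeq2's size factors, no filter or at least 10 counts in every sample, DESeq2 1.42.0 (Wald test), the replicate number as a block, offsets for the GC content and length of genes (the median of each of 20 bins of genes), both together, each sample left out in turn, another length, and another prior count.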

Additional observations from a re-analysis of the deposited data

How the results depend on the processing

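The count of autophagy genes called by edgeR's quasi-likelihood test (Benjamini-Hochberg adjusted P under 0.05) was 0 with DESeq2's size factors, without a filter on low counts and with at least 10 counts in every sample. DESeq2's Wald test, a separate test, also called 0 at an adjusted P under 0.05. The quasi-likelihood count was 2 with GC and length offsets, and 0 to 2 when 1 sample was left out. Among the other pathway genes, 0 were called in the first settings, 9 with the offsets, and 0 to 4 with 1 sample left out. Over all genes the 286 calls became 648 without a filter, 470 with DESeq2, 2425 with the offsets and 48 to 2211 with 1 sample left out, the highest without replicate 2 and the next (995) without replicate 1 of 16 months. Both libraries are those whose deviations followed GC content, and the cause of that was not tested. Over all alternatives, 303 of 338 log2 fold changes of the 26 genes named with full values kept their direction and their side of the threshold, 21 were newly called and 14 turned. With 1 sample left out, Becn1 ranged from −0.035 to 0.0021 and Gabarapl1 from −0.046 to 0.015 (both turned without replicate 3 of 16 months), Atg2a from −0.17 to 0.062 (turned without replicate 2 of 16 months), Ulk1 from −0.063 to 0.14 (turned without replicate 1 of 16 months and, to −0.0039, without replicate 2 of 6 months) and Tax1bp1 from −0.084 to 0.069 (turned without replicate 1 of 16 months). With the offsets, and with the offsets and the replicate block, Map1lc3b turned to −0.0030 and −0.0026, Ulk1 to −0.013 and −0.012, Atg3 to 0.035 and 0.038 and Tax1bp1 to 0.038 and 0.038. The median ratio of SDs, 16 over 6 months, was 1.39 with the offsets. With the length of the longest transcript the levels at 6 months were 321.6 (Gabarapl1), 109.8 (Map1lc3a), 89.4 (Gabarap), 31.4 (Map1lc3b) and 17.6 CPM per kb (Gabarapl2), in unchanged order. The highest gene of the ULK complex became Atg13 and that of the conjugation systems Atg3.

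The replicate numbers that the ages share were not taken as a pairing, since the deviations of same-numbered samples correlated with r = 0.180, 0.0958 and 0.0351 across genes, where each had to exceed 0.1, and replicate 3 of 16 months correlated best with replicate 2 of 6 months. Over the 36 autophagy genes alone, the correlations were 0.756, 0.705 and 0.256, each the highest for its sample. With the replicate number as a block, 0 autophagy genes, 1 pathway gene (Fundc1, lower) and 783 of all genes were called. The block together with the offsets gave 4 autophagy genes (Rb1cc1 and Atg2a lower, Map1lc3a and Nbr1 higher), 13 pathway genes and 3321 of all genes. Depth was lowest for Atg4a, with 110 to 163 counts per sample and the largest standard error of the 36 genes (0.13).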
